A study of Mus musculus with 59 samples.

Results

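The genes described here belong to signalling by interleukin-6 and related cytokines through gp130. They were Il6, Il6ra, Il6st, Lif, Lifr, Osmr, Socs3 and Stat3, and every probe set annotated to exactly 1 of these genes was taken. That gave 7 of the 8 genes, among 8251 genes measured in all, and 14 of the 12488 probe sets on the array. No probe set was assigned to Lif alone, so Lif was not analysed here. Lifr had 5 probe sets, Il6st, Socs3 and Stat3 had 2 each, and Il6, Il6ra and Osmr had 1 each. The members were not chosen by their values in a contrast, but the gene set was proposed with earlier results of these arrays known.

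The arrays measured total RNA in pieces of mouse left ventricle, 1 piece per array, taken after surgery at 6 times: 1, 4, 24 and 48 h, then 1 and 8 weeks. Each heart with a myocardial infarction could give a piece of the infarct, from the region between the LAD artery (the left anterior descending branch) and the apex, and a remote piece from above the artery. Sham surgery gave an upper piece, at the remote position, and in some mice a lower piece, at the infarct position. There were 18 infarct, 18 remote and 18 sham upper arrays, 3 for each time, and 5 sham lower arrays, 1 for each time but 8 weeks. "Sham" below means sham upper, the control for infarct and remote pieces alike. The sources used here do not give strain, sex, age or how the infarct was made. Each title carries a number whose meaning the labels do not state, so p values measure the spread between these arrays, which may in part be technical. Intensities are the deposited linear values, which ranged between 0 and 35489, and array medians lay between 157 and 214. Each change is a difference of log2(intensity + 45.6) with its standard error (SE), with n = 3 arrays per group, and it understates the change of dim probe sets. A probe set is called higher or lower when its limma p value, adjusted by Benjamini-Hochberg over all 10833 probe sets with 1 gene, was below 0.05. The number of arrays limits the precision: in data simulated for infarct against sham at 24 h, the test found 34% of log2 changes of 0.5 and 82% of those of 1. Only 50 changes of each size were planted among 10833 probe sets there. In the real comparison 13.8% of all probe sets were called higher and 16.7% lower. The adjusted threshold depends on how many probe sets change, so these shares do not give the power of the real comparison.

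Interleukin-6 is a secreted cytokine that binds the receptor encoded by Il6ra, and the pair then recruits gp130, the signal-transducing subunit encoded by Il6st. gp130 is shared with other cytokines of the family: leukaemia inhibitory factor signals through gp130 with the receptor encoded by Lifr, and oncostatin M through gp130 with the receptor encoded by Osmr in mice. Janus kinases bound to gp130 phosphorylate the transcription factor encoded by Stat3, which enters the nucleus and switches on target genes. One of them is Socs3, whose product binds gp130 and the kinases and shuts the signal down. In the heart, gp130 signalling is known from mouse studies as a pathway of cardiomyocyte survival and growth and of the inflammatory response after injury.

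The windows before the gene starts of Il6, Socs3 and Osmr are shown because these 3 members rose most. Each is the 250 bases before the annotated start in RefSeq, build GRCm38.p6, written 5′ to 3′ on the gene's strand. Capitals mark matches, on either strand, to a STAT motif (TTCNNNGAA), an NF-kB motif (GGG, any 2 bases, then TTTCC) or an AP-1 motif (TGANTCA).
Il6 promoter, chr5:30012864-30013113, plus strand: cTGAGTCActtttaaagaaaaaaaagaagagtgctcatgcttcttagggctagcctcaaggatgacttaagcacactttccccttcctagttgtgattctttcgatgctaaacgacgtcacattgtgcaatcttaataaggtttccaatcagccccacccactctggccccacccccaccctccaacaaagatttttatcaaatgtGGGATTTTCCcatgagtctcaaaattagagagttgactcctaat
Socs3 promoter, chr11:117969367-117969616, minus strand: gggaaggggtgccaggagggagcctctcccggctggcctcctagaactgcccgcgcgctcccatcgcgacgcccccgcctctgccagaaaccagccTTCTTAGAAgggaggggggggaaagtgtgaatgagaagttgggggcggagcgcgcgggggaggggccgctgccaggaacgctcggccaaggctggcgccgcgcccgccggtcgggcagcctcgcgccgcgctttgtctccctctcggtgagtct
Osmr promoter, chr15:6874314-6874563, minus strand: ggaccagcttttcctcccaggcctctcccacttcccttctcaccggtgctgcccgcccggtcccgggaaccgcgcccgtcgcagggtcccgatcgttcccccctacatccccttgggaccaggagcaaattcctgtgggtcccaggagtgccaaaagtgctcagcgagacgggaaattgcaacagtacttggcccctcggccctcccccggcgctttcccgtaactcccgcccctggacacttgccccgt
The Il6 window held 1 NF-kB match, which begins 44 bases before the start, and 1 AP-1 match, which begins 249 bases before it. The Socs3 window held 1 STAT match, which begins 154 bases before the start. The Osmr window held none of the 3 motifs. Of all 32851 windows of this length, 7.02% held the STAT motif, 1.41% the NF-kB motif and 6.75% the AP-1 motif. All 8 members had windows, 9 in total, and 6 of them held none of the motifs. Matched letters describe the window and not a bound site.

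In the infarct, Il6 and Socs3 were called from 1 h to 1 week, Osmr from 24 h to 8 weeks, and at least 1 of the 5 Lifr probe sets was lower from 24 h to 1 week. At 1 h 3 of the 14 probe sets were higher and 0 lower, where 2.70% and 2.40% of all probe sets tested were called in those directions. At 4 h 3 were higher and 0 lower (3.69% and 4.44% of all tested). At 24 h 5 were higher and 3 lower (13.8% and 16.7% of all), and at 48 h 6 were higher and 4 lower (18.7% and 19.4% of all). At 1 week 5 were higher and 2 lower (27.6% and 18.8% of all), which is close to the share of all probe sets. At 8 weeks 2 were higher and 0 lower (8.08% and 7.18% of all). In the remote region no member was called lower at any time. There 3 were higher at 1 h (3.72% of all were higher and 2.08% lower), 3 at 4 h (0.969% and 0.222%), 4 at 24 h (1.83% and 0.942%), 5 at 48 h (3.02% and 2.90%) and 5 at 1 week (15.0% and 11.9%). At 8 weeks 0 members were called by limma in the remote region (0.0738% and 0.0185% of all), and 1 had an unadjusted p under 0.05. Both comparisons use the same sham arrays.

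**Figure D1:**
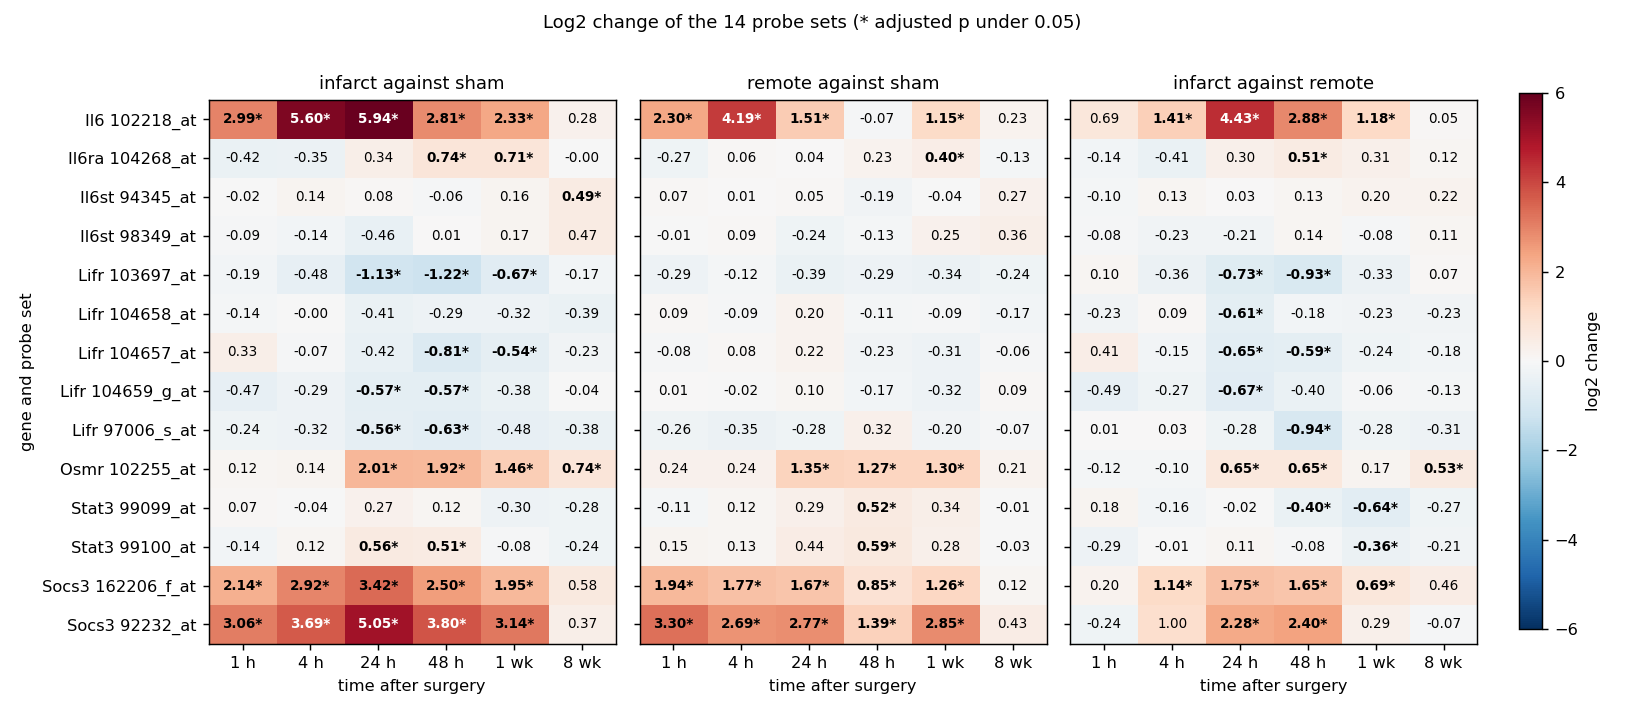
Log2 change of each of the 14 probe sets (rows) at 6 times after surgery (columns) for infarct against sham, remote against sham and infarct against remote, with the value printed and coloured and a star for adjusted p under 0.05. Il6 at the top and Socs3 at the bottom carry the largest changes, at most 5.94 for Il6 in the infarct at 24 h.

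Il6, the ligand, was low in sham ventricle at every time and rose in both regions of infarcted hearts within 1 h. At 1 h its intensity was 378, 409 and 763 in infarct pieces, 352, 163 and 402 in remote pieces, and 35.0, 8.0 and 26.1 in sham. At 4 h it was 3373, 3833 and 3478 in the infarct, 1636, 1302 and 1049 in the remote region, and 9.0, 16.2 and 75.1 in sham. Every infarct array and every remote array lay above all sham arrays at both times. The infarct change was 2.99 ± 0.38 at 1 h (adjusted p = 1.06e-06) and 5.60 ± 0.38 at 4 h (adjusted p = 2.24e-14), and the remote change was 2.30 ± 0.38 and 4.19 ± 0.38 (adjusted p = 1.66e-04 and 4.63e-10).

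Infarct arrays lay above all remote arrays from 4 h to 1 week. The infarct held 2423, 4200 and 3233 at 24 h, the remote region 6.7, 168 and 289, and sham 3.9, 17.4 and 5.9. The remote array at 6.7 lay within the sham range, and the other two lay above it. The infarct change at 24 h was 5.94 ± 0.38 (adjusted p = 6.95e-16) and the remote change 1.51 ± 0.38 (adjusted p = 0.0161). The remote call was lost without the remote array at 168 (1.30, adjusted p = 0.158) or at 289 (0.96, adjusted p = 0.188), without the sham array at 3.9 (1.44, adjusted p = 0.0645) or at 5.9 (1.47, adjusted p = 0.0578), and with only the groups compared in the fit (adjusted p = 0.299). An offset of 1 times the median also ended that call (0.72, adjusted p = 0.0662). At 48 h Il6 was 412, 812 and 463 in the infarct, 26.1, 63.2 and 18.6 in the remote region and 23.1, 34.1 and 59.6 in sham. The infarct arrays stood above the rest, while remote and sham arrays overlapped (changes of 2.81 ± 0.38 and -0.07 ± 0.38).

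At 1 week Il6 was 271, 388 and 166 in the infarct, 70.4, 125.5 and 79.8 in the remote region, and 28.3, 15.2 and 5.1 in sham, so that the 3 regions did not overlap. The infarct change was 2.33 ± 0.38 (adjusted p = 1.75e-06). The remote change was 1.15 ± 0.38 (adjusted p = 0.0209), and this call was lost without the sham array at 15.2 (adjusted p = 0.0514) or at 5.1 (adjusted p = 0.0868) or the remote array at 125.5 (adjusted p = 0.0852). At 8 weeks all 9 arrays of the 3 regions were at 41.9 or below and overlapped, with changes of 0.28 ± 0.38 in the infarct and 0.23 ± 0.38 in the remote region. Over all times Il6 was at or above 108.2, the 40th percentile of all values on the arrays, on 24 of 59 arrays, none of them sham. In tissue pieces such as these, a change in the number of cells that make a transcript and a change in its amount per cell cannot be told apart.

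**Figure D2:**
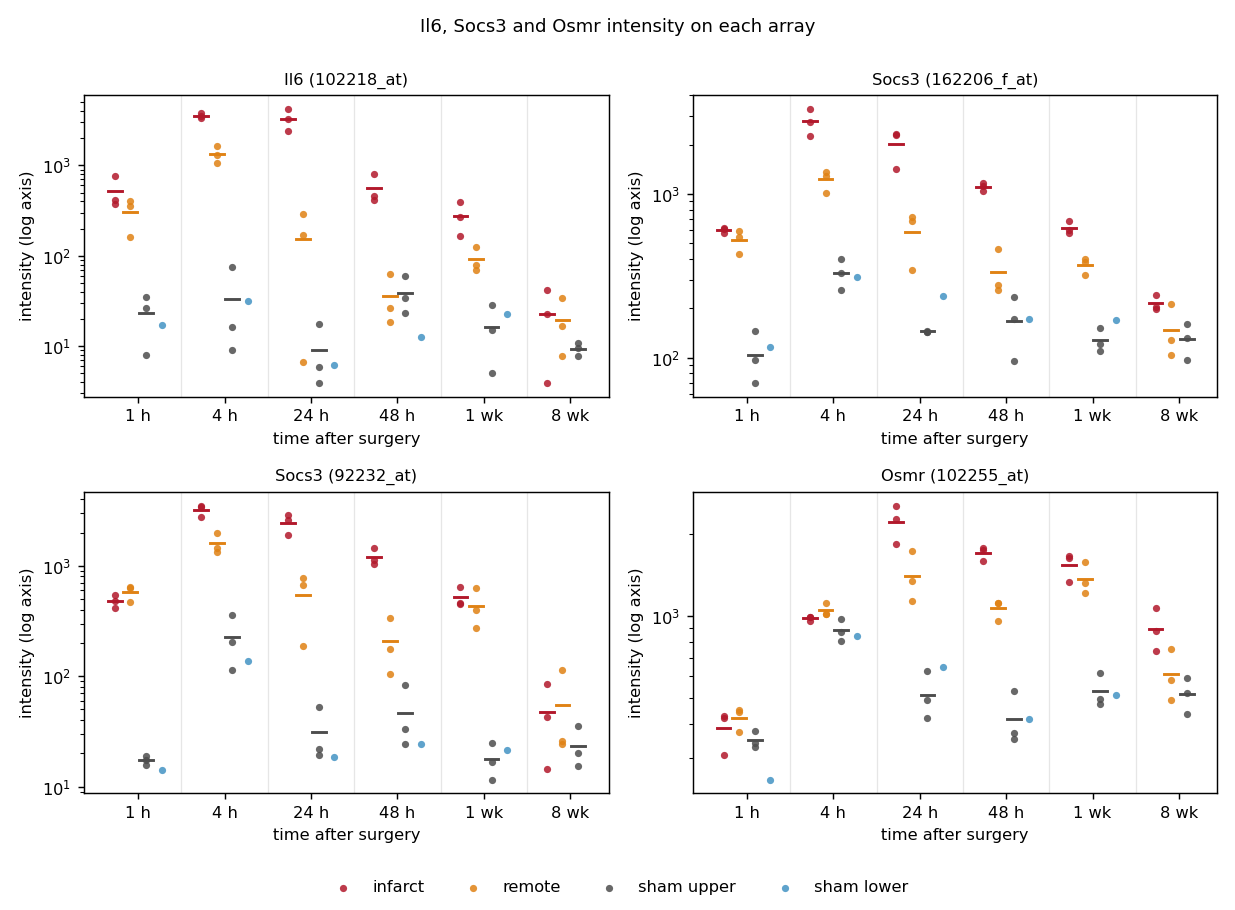
Intensity (log axis) of Il6, both Socs3 probe sets and Osmr on each array against time after surgery, with infarct, remote, sham upper and sham lower from left to right at each time (points are arrays, bars are means of 3). Il6 in the infarct reaches 3373 to 3833 at 4 h while sham stays at or below 75.1, and Socs3 and Osmr in sham are highest at 4 h.

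Osmr, the receptor subunit for oncostatin M, rose later than the ligand and rose in both regions. At 24 h its intensity was 2262, 2538 and 1835 in the infarct, 1337, 1726 and 1129 in the remote region, and 490, 423 and 628 in sham. The 3 regions did not overlap. At 48 h it was 1737, 1585 and 1771 in the infarct, 1116, 961 and 1118 in the remote region, and 354.8, 374 and 529 in sham, again without overlap. The infarct change was 2.01 ± 0.16 at 24 h (adjusted p = 1.68e-13) and 1.92 ± 0.16 at 48 h, and the remote change 1.35 ± 0.16 (adjusted p = 2.35e-07) and 1.27 ± 0.16.

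At 1 week Osmr was 1652, 1334 and 1629 in the infarct, 1209, 1323 and 1574 in the remote region, and 619, 495 and 477 in sham. Infarct and remote arrays overlapped there, and both lay above sham (1.46 ± 0.16 and 1.30 ± 0.16). At 8 weeks it was 880, 742 and 1072 in the infarct, above the sham arrays at 438, 594 and 522, with a change of 0.74 ± 0.16 (adjusted p = 0.0011), not called with only the groups compared in the fit (adjusted p = 0.0869). The remote arrays at 8 weeks, at 757, 491 and 582, overlapped sham (0.21 ± 0.16, adjusted p = 0.782). At 1 h and 4 h Osmr was not called in either region. The infarct change was 0.12 at 1 h (95% interval -0.20 to 0.44) and 0.14 at 4 h (95% interval -0.17 to 0.46). At 4 h the level was 954 to 991 in the infarct, 1017 to 1119 in the remote region and 808 to 977 in sham, all above every sham array of the other times.

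Il6ra, the binding subunit for interleukin-6, was called higher in the infarct at 48 h and 1 week. At 48 h it was 414, 323 and 320 in the infarct, 287, 226 and 193 in the remote region, and 152, 179 and 253 in sham. At 1 week it was 372.4, 362.6 and 385.6 in the infarct, 360.9, 274.5 and 253 in the remote region, and 239, 176 and 220 in sham. The infarct arrays lay above all sham arrays at both times, by 0.74 ± 0.15 (adjusted p = 1.32e-04) and 0.71 ± 0.15 (adjusted p = 1.56e-04). With the 1 sham lower array alone as control, the infarct change was 0.52 at 48 h and 0.69 at 24 h. At 24 h the infarct held 292 to 322, above the 178 to 282 of sham. That change of 0.34 was not called (adjusted p = 0.0922). It was called with both sham positions together as control (0.43, adjusted p = 0.0389) and without the sham array at 281.8 (0.46, adjusted p = 0.037). The remote change at 1 week was 0.40 ± 0.15 (adjusted p = 0.048). It was 0.22 (adjusted p = 0.324) under quantile normalization, and the call was also lost without the remote array at 360.9 (0.27, adjusted p = 0.277) or at 274.5 (0.44, adjusted p = 0.0598), or the sham array at 176 (0.30, adjusted p = 0.235) or at 220 (0.43, adjusted p = 0.072). At 1 h the infarct held 236, 203 and 299 and sham 325, 417 and 288, with overlap, and at 4 h the infarct held 238, 213 and 235, below the sham values of 287, 271 and 360. Neither difference was called (-0.42, adjusted p = 0.117 and -0.35, adjusted p = 0.181).

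Il6st, the shared gp130 subunit, was not called in any region up to 1 week. On probe set 94345_at its values over those 5 times lay between 1730 and 2220 in the infarct, 1513 and 2303 in the remote region, and 1713 and 2157 in sham. At 8 weeks it was 2024, 2566 and 2858 in the infarct, 2087, 2113 and 2128 in the remote region, and 1814, 1772 and 1642 in sham. The infarct arrays, though spread, and the remote arrays all lay above sham, and the infarct change of 0.49 ± 0.11 was called (adjusted p = 0.00161, but 0.126 with only the groups compared in the fit) while the remote change of 0.27 ± 0.11 was not (adjusted p = 0.558). The difference between the regions at 8 weeks was 0.22 ± 0.10 (adjusted p = 0.247). Without the infarct array at 2024 that difference was 0.35 and called (adjusted p = 0.0246). The other probe set, 98349_at, was called at no time in either region. Its infarct change at 8 weeks was 0.47 ± 0.18 (adjusted p = 0.0716). Without the infarct array at 478.2 the 8 week change was 0.73 and called (adjusted p = 0.00376). At 24 h this probe set was at 382 to 537 in the infarct, below the 558 to 720 of sham, a change of -0.46 ± 0.18 (adjusted p = 0.0534). That change was called under quantile normalization (adjusted p = 0.0298), the filter on low values (adjusted p = 0.0421) and both sham positions together as control (adjusted p = 0.0472), and without the sham array at 557.8 (adjusted p = 0.0348) or the infarct array at 537.4 (adjusted p = 0.041). The infarct array with the highest value of both Il6st probe sets at 8 weeks (2858 and 988) also had the highest summed adipocyte markers of all infarct arrays, 8500, where the sham arrays had 1606 to 2509, and the part of those cells in the result was not tested.

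Lifr, the receptor subunit for leukaemia inhibitory factor, was called lower in the infarct on 4 of its 5 probe sets at one time or more. On probe set 103697_at the infarct held 379, 254 and 424 at 24 h, the remote region 567, 621 and 616, and sham 746, 815 and 869. At 48 h the infarct held 372, 337 and 280, the remote region 771, 846 and 450, and sham 781, 842 and 858. At 1 week the infarct held 537, 386 and 475, the remote region 636, 511.6 and 639, and sham 867, 709 and 722. The infarct arrays lay below all sham arrays at these 3 times. The infarct changes were -1.13 ± 0.19 (adjusted p = 8.4e-06), -1.22 ± 0.19 (adjusted p = 1.16e-06) and -0.67 ± 0.19 (adjusted p = 0.00317). Infarct arrays also lay below all sham arrays at 1 h (641 to 765.5 against 766.6 to 865.5) and 4 h (372 to 664 against 678 to 837), without a call. Remote arrays lay below all sham arrays at 1 h (630 to 677), 24 h and 1 week, again without a call. The sham lower array at 1 h was at 603.9, below all infarct and remote arrays of that time. At 4 h the sham lower array was at 812.7, above the infarct arrays. By 8 weeks infarct values of 981, 659 and 671 overlapped sham values of 705, 881 and 1026.

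Of the other 4 Lifr probe sets, 104658_at and 104659_g_at were designed from the same sequence record. At 48 h 104657_at changed by -0.81 ± 0.21, 97006_s_at by -0.63 ± 0.21 and 104659_g_at by -0.57 ± 0.21, all called, and 104658_at by -0.29 ± 0.19 (adjusted p = 0.235). At 1 week 104657_at was also called (-0.54 ± 0.21, adjusted p = 0.0276), and at 24 h 104659_g_at and 97006_s_at were (-0.57 and -0.56). All 5 probe sets had negative infarct changes at 24 h, 48 h and 1 week. Apart from that of 104657_at at 48 h, each of these calls was lost without any 1 of 2 to 5 arrays, and 97006_s_at reached 108.2 on only 3 of 59 arrays. With the 1 sham lower array alone as control, the 48 h changes were smaller: -0.69 for 104657_at, -0.48 for 97006_s_at and -0.36 for 104659_g_at. In the remote region no Lifr probe set was called, with changes on 103697_at between -0.39 and -0.12.

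Markers of heart muscle, neutrophils, macrophages, fibroblasts, smooth muscle and endothelium changed in the same pieces. The summed intensity of 10 cardiomyocyte markers was 111976 to 144784 in infarct pieces at 48 h, 185234 to 225464 in remote pieces and 191848 to 235462 in sham, and 7 of the 10 were called lower in the infarct. At 1 week all 10 were called lower in the infarct, with sums of 22490 to 76651 there, 139325 to 176274 in remote pieces and 196533 to 223236 in sham. The next lowest infarct sum at 1 week was 74416. The summed intensity of 11 neutrophil markers at 24 h was 5871 to 16688 in the infarct, 1232 to 4936 in the remote region and 618 to 720 in sham, and 8 of 11 were called higher in the infarct. Of 13 macrophage and monocyte markers, 7 were higher in the infarct at 24 h, 9 at 48 h, 13 at 1 week and 8 at 8 weeks, and 13 were higher in the remote region at 1 week and 0 at 24 h and 48 h. Of 10 fibroblast markers, 8 were higher and 1 lower in the infarct at 1 week, with sums of 73084 to 80445 there, 75370 to 87053 in the remote region, where 7 were higher, and 23615 to 24709 in sham. At 8 weeks 7 of them were higher in the infarct and 1 in the remote region, with sums of 32907 to 65298 in the infarct, 30321 to 42379 in the remote region and 22615 to 27463 in sham. Of 6 smooth muscle and pericyte markers, 4 were higher at 1 week in the infarct and 3 in the remote region. Earlier in the infarct, 1 of them was higher and 2 lower at 24 h, and 0 higher and 3 lower at 48 h. Of 9 endothelial markers, 4 were higher and 0 lower in the infarct at 4 h, and 1 was higher and 5 lower at 1 week. Of all probe sets, 3.69% were called higher in the infarct at 4 h, 13.8% at 24 h, 18.7% at 48 h, 27.6% at 1 week and 8.08% at 8 weeks. The shares lower were 16.7% at 24 h, 19.4% at 48 h and 18.8% at 1 week. In the remote region 1.83% were higher at 24 h, 3.02% at 48 h, 15.0% at 1 week and 0.0738% at 8 weeks. At 1 h 0 neutrophil, 0 macrophage and 0 cardiomyocyte markers were called by limma for infarct against sham. There 2.70% of all were higher and 2.40% lower, so 0 of 10 to 13 markers is close to the share of all. The neutrophil sum at 1 h was 1676 to 2112 in the infarct, 920 to 1606 in the remote region and 979 to 1172 in sham. There 3 of the 11 were called higher in the infarct than in the remote region (2.32% of all). The sham lower array at 1 h had a neutrophil sum of 1779. By 4 h the neutrophil sum was 2318 to 2755 in the infarct, 2841 to 5795 in the remote region and 965.5 to 1222 in sham. Of the 11 markers, 2 were called higher in the infarct at 4 h (3.69% of all) and 2 in the remote region (0.969% of all). The remote array with the highest Il6 at 4 h, 1636, was the one with the neutrophil sum of 5795. Its summed adipocyte markers were at 6720, where the other remote arrays at 4 h had 1914 and 1941. The part of these cells in the member results was not tested.

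**Figure D3:**
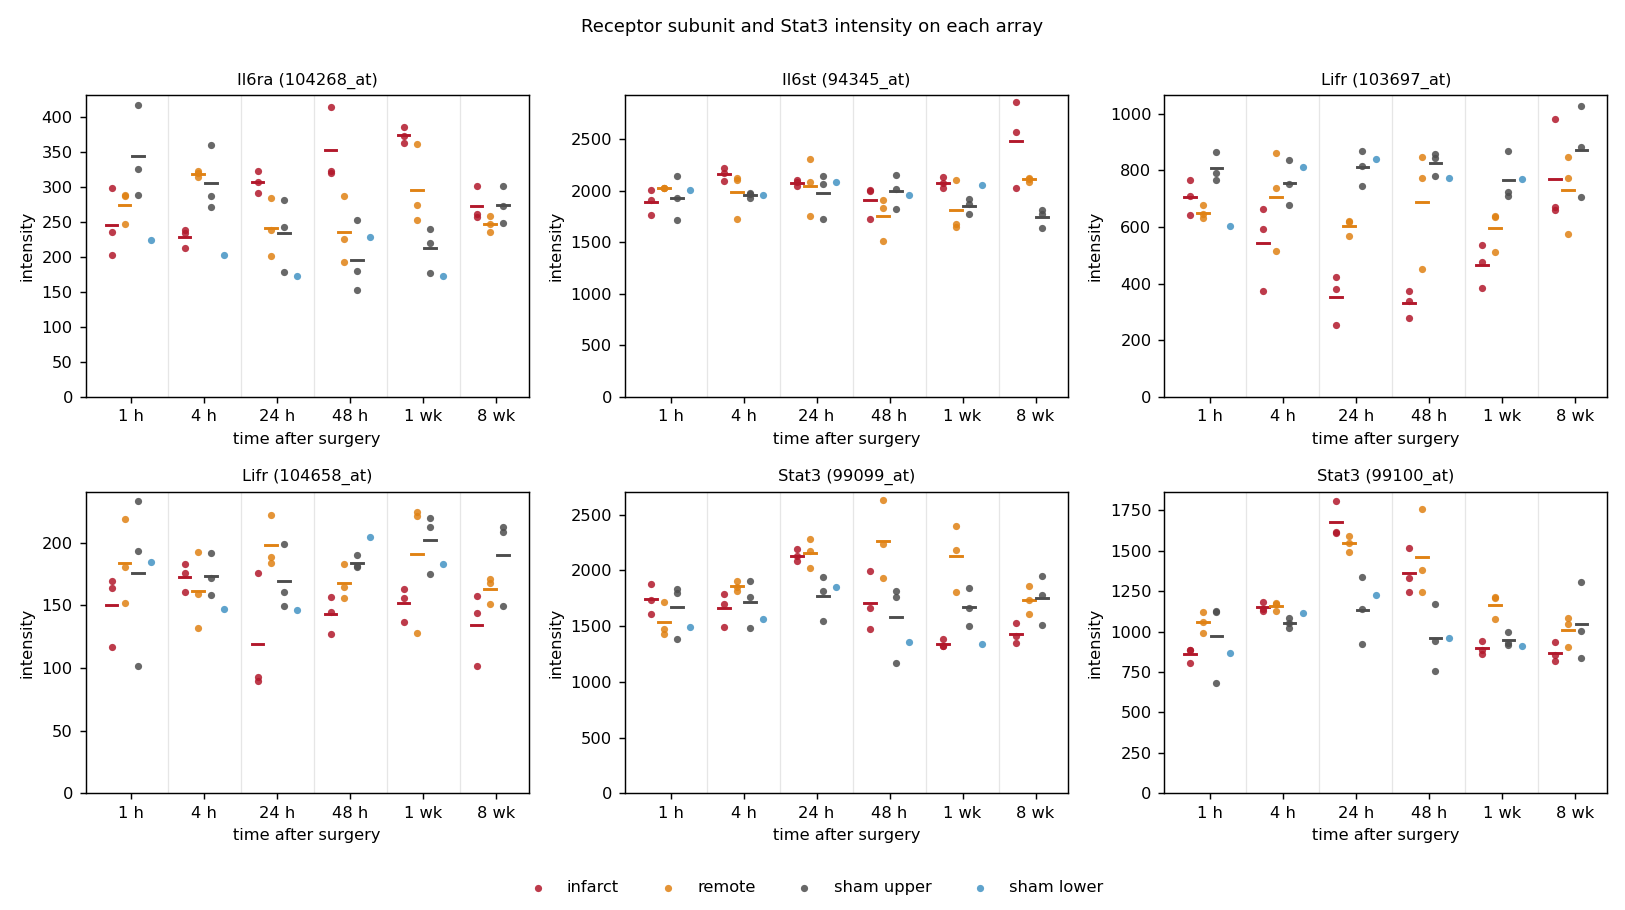
Intensity (linear axis starting at 0) of Il6ra, Il6st (94345_at), Lifr (103697_at and 104658_at) and both Stat3 probe sets on each array against time after surgery, with infarct, remote, sham upper and sham lower from left to right (points are arrays, bars are means of 3). Lifr 103697_at in the infarct lies below sham upper from 1 h to 1 week, but above the sham lower point at 1 h. Probe set 104658_at overlaps sham at 24 h. Stat3 (99099_at) at 1 week is 1323 to 1383 in the infarct and 1809 to 2399 in the remote region.

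Stat3, the transcription factor downstream of gp130, had called changes from sham of at most 0.59 on the log2 scale. On probe set 99100_at it was 1608, 1809 and 1616 in the infarct at 24 h, 1549, 1593 and 1494 in the remote region, and 1337, 1143 and 923 in sham. At 48 h it was 1333, 1245 and 1518 in the infarct, 1379, 1246 and 1757 in the remote region, and 943, 1172 and 758 in sham. Infarct and remote arrays both lay above sham at these times. The infarct changes of 0.56 ± 0.14 (adjusted p = 0.00181) and 0.51 ± 0.14 (adjusted p = 0.00342) were called, as was the remote change at 48 h, 0.59 ± 0.14 (adjusted p = 0.00695). The remote change at 24 h was 0.44 ± 0.14 (adjusted p = 0.0791). With the 1 sham lower array alone as control, the infarct changes were 0.40 at 24 h and 0.52 at 48 h, and the remote change at 48 h was 0.60. Without the lowest sham array, at 758, both 48 h calls were lost (0.36, adjusted p = 0.0593 in the infarct and 0.44, adjusted p = 0.0892 in the remote region), and the remote one also without the remote array at 1757 (0.46, adjusted p = 0.0915).

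On the other Stat3 probe set, 99099_at, the infarct was called at no time. At 48 h it was 1662, 1475 and 1997 in the infarct, 2237, 1928 and 2633 in the remote region, and 1758, 1820 and 1172 in sham, with a called remote change of 0.52 ± 0.13 (adjusted p = 0.0124). That call was lost without the sham array at 1172 (0.32, adjusted p = 0.183) or the remote array at 2633 (0.42, adjusted p = 0.111). At 1 week it was 1383, 1323 and 1325 in the infarct, 2185, 2399 and 1809 in the remote region, and 1499, 1842 and 1667 in sham. Every infarct array there was below every sham array, while remote and sham overlapped. The changes from sham were -0.30 ± 0.13 in the infarct (adjusted p = 0.0623) and 0.34 ± 0.13 in the remote region (adjusted p = 0.0533), neither called, and the infarct minus remote difference of -0.64 ± 0.13 was called (adjusted p = 9.08e-05). With the 1 sham lower array alone as control, the remote change was 0.64. The remote change was called under quantile normalization, the filter on low values, 1 probe set per gene and both sham positions together as control (adjusted p = 0.0105 to 0.0469). It was also called without the sham array at 1842 (adjusted p = 0.0399) or the remote array at 1809 (adjusted p = 0.0217). The infarct change was called with only the groups compared in the fit (adjusted p = 0.0364) and without the sham array at 1499 (adjusted p = 0.039). The measurement is of Stat3 RNA and says nothing of the phosphorylated protein.

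Socs3, the feedback inhibitor, was called higher at every time up to 1 week in both regions. On probe set 92232_at it was 418, 483 and 544 in the infarct at 1 h, 644, 468 and 629 in the remote region, and 15.8, 19 and 17.4 in sham. At 24 h it was 1891, 2862 and 2601 in the infarct, 186, 676 and 771 in the remote region, and 53.0, 21.9 and 19.5 in sham. At 48 h it was 1139, 1041 and 1436 in the infarct, 178, 104 and 339.3 in the remote region, and 33.6, 24.3 and 82.9 in sham. All infarct and remote arrays lay above all sham arrays at these times. The infarct changes were 3.06 ± 0.36, 5.05 ± 0.36 and 3.80 ± 0.36, and the remote changes 3.30 ± 0.36, 2.77 ± 0.36 and 1.39 ± 0.36, all called (the largest adjusted p was 0.0127, for the remote region at 48 h).

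At 4 h Socs3 in sham was itself high, 203, 114 and 360 on 92232_at, against infarct values of 3510, 3388 and 2752 and remote values of 1990, 1346 and 1461. The changes there were 3.69 ± 0.36 in the infarct and 2.69 ± 0.36 in the remote region. At 1 week it was 463, 644 and 447 in the infarct, 276 to 623 in the remote region, and 11.6, 16.7 and 24.9 in sham, with changes of 3.14 ± 0.36 and 2.85 ± 0.36. Infarct and remote arrays overlapped at 1 week and both stood above sham. At 8 weeks neither region was called, with infarct values of 14.4, 85.6 and 42.4, remote values of 113, 24.6 and 25.9 and sham values of 20.0, 15.5 and 35.2. The other probe set, 162206_f_at, was called at the same times in both regions, with infarct changes of 2.14, 2.92, 3.42, 2.50 and 1.95 and remote changes of 1.94, 1.77, 1.67, 0.85 and 1.26 at 1 h, 4 h, 24 h, 48 h and 1 week. Its changes were the smaller of the pair at each of these times, and the suffix _f marks probes that can match more than one transcript of a family. The remote calls at 48 h were lost on both probe sets without the highest remote array, at 339.3 on 92232_at (1.05, adjusted p = 0.138 there, and 0.63, adjusted p = 0.17 on 162206_f_at), or without the lowest sham array (1.22, adjusted p = 0.0851 and 0.58, adjusted p = 0.204). On 92232_at the call was also lost without the sham array at 33.6 (adjusted p = 0.0515) or with an offset of 1 times the median (0.73, adjusted p = 0.0551).

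Infarct and remote pieces were then set against each other. At 1 h 0 of the 14 probe sets were called by limma, where 2.32% of all were higher and 1.14% lower, and 3 had an unadjusted p under 0.05. At 4 h 2 were higher (0.342% of all higher, 0.406% lower): Socs3 162206_f_at by 1.14 ± 0.22 (adjusted p = 0.00448) and Il6 by 1.41 ± 0.36 (adjusted p = 0.0488). All 3 infarct arrays of Il6 lay above all 3 remote arrays, and its difference stayed at 1.26 to 1.57 when any 1 of the 6 arrays was left out, although the adjusted p was then 0.0652 to 0.255. The Socs3 call was lost without the infarct array at 3305 (1.02, adjusted p = 0.0524) or the remote array at 1014.5 (1.03, adjusted p = 0.0595). At 24 h 4 were higher and 4 lower (11.0% and 11.7% of all). Il6 was higher by 4.43 ± 0.37 (adjusted p = 5.63e-12), the Socs3 probe sets by 2.28 ± 0.34 and 1.75 ± 0.22, and Osmr by 0.65 ± 0.15, and 4 of the 5 Lifr probe sets were lower, with changes of -0.73 to -0.61, of which each lost its call without 1 or 2 of the 6 arrays (adjusted p = 0.05 to 0.0966). At 48 h 5 were higher and 4 lower (17.5% and 20.0% of all), with Il6 at 2.88 ± 0.36, Socs3 at 2.40 ± 0.34 and 1.65 ± 0.22, Osmr at 0.65 ± 0.15 and Il6ra at 0.51 ± 0.15. The 4 lower ones were Lifr 103697_at (-0.93), 97006_s_at (-0.94) and 104657_at (-0.59) and Stat3 99099_at (-0.40). Those of Il6ra, 104657_at and 99099_at were lost without either of 2 single arrays (adjusted p = 0.055 to 0.112).

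At 1 week 2 were higher and 2 lower in the infarct than in the remote region (16.9% and 12.8% of all). These were Il6, by 1.18 ± 0.36 (adjusted p = 0.0105), Socs3 162206_f_at, by 0.69 ± 0.22 (adjusted p = 0.0125), and both Stat3 probe sets, with changes of -0.64 ± 0.13 and -0.36 ± 0.13. The Il6 call was lost without the infarct array at 388 (0.95, adjusted p = 0.0813) or the remote array at 70.4 (1.07, adjusted p = 0.0556), the Socs3 call without the infarct array at 684 (adjusted p = 0.0598) or the remote array at 318 (adjusted p = 0.0763), and the Stat3 99100_at call without any 1 of 4 arrays (adjusted p = 0.0894 to 0.116). The other Socs3 probe set differed by 0.29 ± 0.34 and Osmr by 0.17 ± 0.15 at 1 week, neither called. At 8 weeks 1 was higher and 0 lower (2.10% and 1.18% of all): Osmr, by 0.53 ± 0.15 (adjusted p = 0.0363). Without the infarct array at 1072, which had the highest adipocyte sum, that difference was 0.40 (adjusted p = 0.388), and it was also lost without the remote array at 491 (0.41, adjusted p = 0.254) or at 582 (0.50, adjusted p = 0.112).

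The difference from sham was also tested for change between neighbouring times. In the infarct 1 member probe set passed between 1 h and 4 h (0.692% of all), 2 between 4 h and 24 h (11.2%), 1 between 24 h and 48 h (6.08%), 1 between 48 h and 1 week (18.9%) and 5 between 1 week and 8 weeks (26.8%). In the remote region 2 passed between 4 h and 24 h (0.138% of all), namely Il6, downwards, and Osmr, upwards (both lost under quantile normalization, with only the groups compared, and without any 1 of 5 arrays), and 3 between 1 week and 8 weeks (10.9%). At the other 3 remote steps 0 members passed limma's test (0.0554%, 0.0277% and 8.82% of all, in order of time), and 1, 3 and 2 had an unadjusted p under 0.05.

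In sham ventricle alone, 4 of the 14 probe sets differed between the 6 times by limma's F test, where 14.9% of all probe sets did. Osmr averaged 350 ± 25 at 1 h, 884 ± 86 at 4 h, 419 ± 96 at 48 h and 530 ± 77 at 1 week (SD, n = 3, adjusted p = 1.95e-05). Its 4 h arrays lay above all other sham upper arrays. Socs3 was also highest at 4 h on both probe sets (adjusted p = 5.19e-04 on 92232_at and 0.0011 on 162206_f_at). Il6ra averaged 343 ± 67 at 1 h, 306 ± 48 at 4 h, 234 ± 52 at 24 h, 195 ± 52 at 48 h, 212 ± 32 at 1 week and 274 ± 27 at 8 weeks (SD, n = 3, adjusted p = 0.00558). Il6 did not pass this test (adjusted p = 0.69). The single sham lower array at 4 h had 846 for Osmr and 138 and 312 for Socs3, and at 1 h it had 251 for Osmr and 14.1 and 116 for Socs3. Over the 5 pairs of sham lower and sham upper pieces with the same title number, 0 of 14 probe sets differed by limma (0.00% of all), and 1 had an unadjusted p under 0.05, Socs3 162206_f_at, higher in the lower piece by 0.41 ± 0.14 (adjusted p = 0.271).

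The other genes of the pathway were taken from 6 lists, which contain the members themselves. Of 10 family ligands 4 were measured. At 24 h 2 were higher and 1 lower in the infarct (13.8% and 16.7% of all probe sets tested). Besides Il6, Il11, a related cytokine, rose by 1.43 ± 0.25 to 129 ± 108 in the infarct against 8.5 ± 2.8 in sham, with a wide spread. Ctf1, the cardiotrophin gene, fell by 0.66 on the log2 scale to 234 ± 59 in the infarct against 391.5 ± 47 in sham. Of the 4, only Il6 was called in the remote region at 24 h, and at 1 week Ctf1 was called lower there too (-0.57). Of 9 receptor subunits 6 were measured, and at 1 week 4 were higher and 1 lower in the infarct (27.6% and 18.8% of all), and 3 higher and 0 lower in the remote region (15.0% and 11.9% of all). Cntfr, the binding subunit for ciliary neurotrophic factor, was at 92.4 ± 41.9 in the infarct at 1 week against 30.4 ± 8.0 in sham (0.83 ± 0.22, adjusted p = 0.00197).

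All 9 Janus kinases and adaptors were measured, and at 48 h 5 were higher and 1 lower in the infarct (18.7% and 19.4% of all) and 0 were called by limma in the remote region (3.02% and 2.90% of all). Shc1, an adaptor towards the MAP kinase route, rose by 1.21 ± 0.14 to 1158 ± 39 in the infarct, against 474 ± 11 in sham. Jak2 and Jak1, kinases that bind gp130, rose by 0.73 ± 0.15 and 0.53 ± 0.12. Gab1, a docking adaptor, fell to 549 ± 63 in the infarct, against 1150 ± 76 in sham (-1.01 ± 0.10). Of 7 STAT factors 5 were measured. At 48 h Stat6 was higher in the infarct (0.56 ± 0.16) and Stat5b and Stat5a lower (-0.46 ± 0.17 and -0.45 ± 0.11). Of 14 negative regulators 11 were measured, and at 1 week 7 were higher and 1 lower in the infarct, and 6 higher and 1 lower in the remote region (of all, 27.6% and 18.8% in the infarct and 15.0% and 11.9% in the remote region). Ptpn6, a phosphatase gene known for its expression in blood cells, rose by 2.44 ± 0.31, and Socs1, a relative of Socs3, by 1.49 ± 0.38. Cish, another family member known as a STAT5 target, fell to 271 ± 58 in the infarct, against 1037 ± 424 in sham (-1.70 ± 0.29).

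The sixth list held 38 genes known as STAT3 targets in other tissues, all measured, many of which answer to other factors too. In the infarct 5 were higher and 1 lower at 1 h, 10 and 3 at 4 h, 23 and 0 at 24 h, 23 and 1 at 48 h, 21 and 3 at 1 week, and 11 and 2 at 8 weeks. The shares of all probe sets called higher and lower in the infarct were 2.70% and 2.40%, 3.69% and 4.44%, 13.8% and 16.7%, 18.7% and 19.4%, 27.6% and 18.8%, and 8.08% and 7.18% at these times. Remote pieces had 5 higher and 1 lower at 1 h, 8 and 0 at 4 h, 12 and 0 at 24 h, 10 and 1 at 48 h, 18 and 2 at 1 week, and 0 and 0 at 8 weeks. There the shares of all were 3.72% and 2.08%, 0.969% and 0.222%, 1.83% and 0.942%, 3.02% and 2.90%, 15.0% and 11.9%, and 0.0738% and 0.0185%. Their median infarct change was 1.08 at 24 h and 0.88 at 48 h, and that of all probe sets tested -0.00 and -0.08. The 4 largest called changes of the list at 48 h were all rises. Saa3, an acute phase protein gene, was at 4100 ± 2362 in the infarct against 449 ± 708 in sham, a wide spread in both. Timp1, an inhibitor of matrix metalloproteases, was at 10978 ± 2165 in the infarct against 717 ± 282 in sham (3.92 ± 0.36). Hp, the haptoglobin gene, was at 2406 ± 762 in the infarct against 257 ± 16 in sham (2.97 ± 0.53), and Il4ra, the interleukin-4 receptor gene, at 1717 ± 95 in the infarct against 186 ± 57 in sham (2.96 ± 0.19). In the remote region at 48 h the changes of these genes were 2.19 for Saa3, 1.95 for Timp1, 0.70 for Hp and 1.07 for Il4ra, of which those of Timp1 and Il4ra were called. Neutrophil markers (6 of 11) and macrophage markers (9 of 13) were also called higher in the infarct at 48 h, and their part in these changes was not tested.

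**Figure D4:**
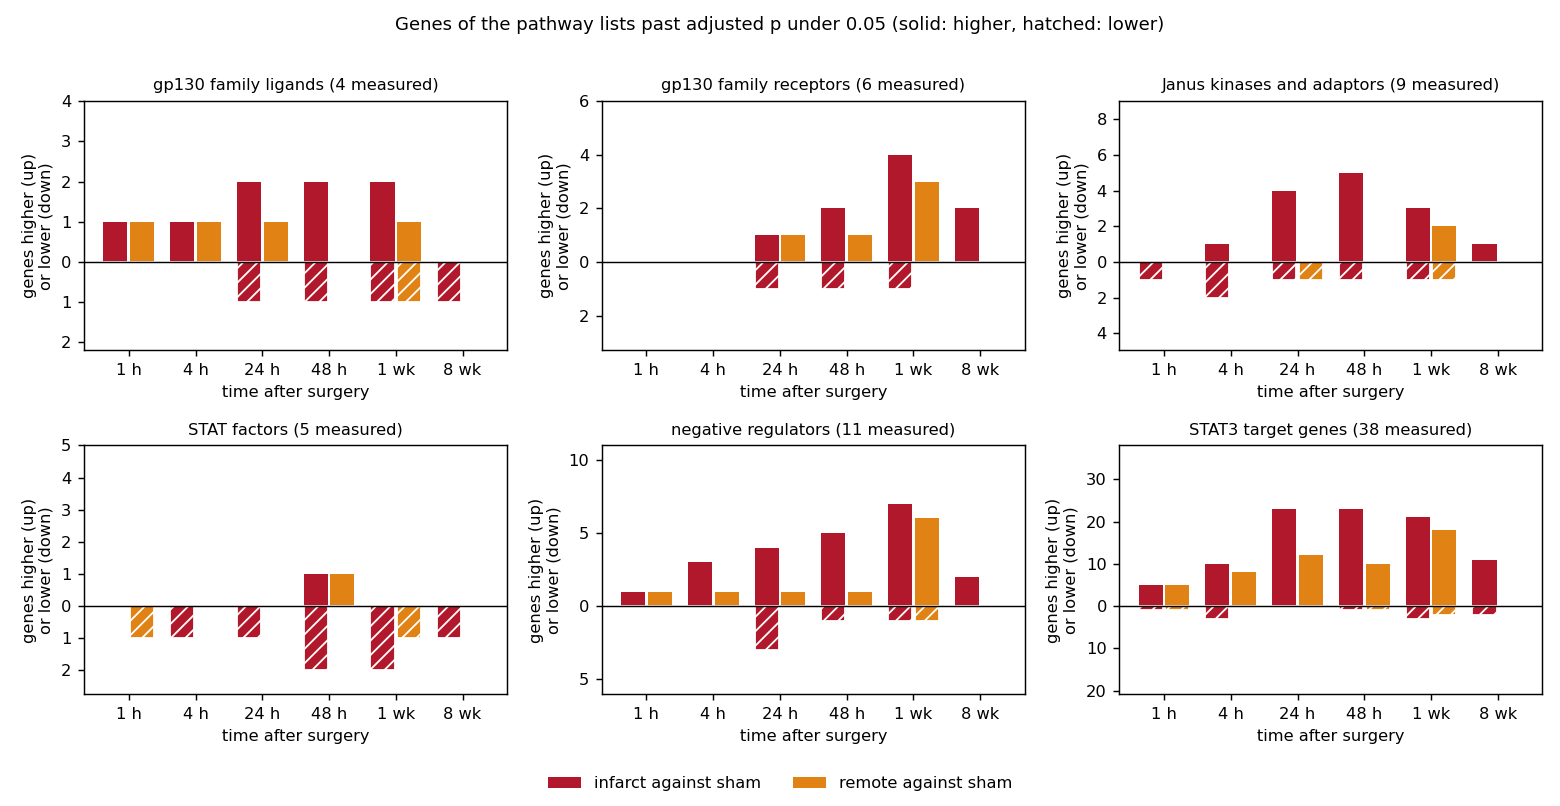
Number of genes of each of the 6 pathway lists that were called higher (solid bars, upwards) or lower (hatched bars, downwards) at each time after surgery, for infarct against sham (left bar) and remote against sham (right bar). Of the 38 STAT3 target genes 23 were higher in the infarct at 24 h and 48 h and 12 and 10 in the remote region, and 18 at 1 week.

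The genes whose pattern was most like that of 3 members were sought over the 18 group means of infarct, remote and sham, among 7953 probe sets with a group mean at or above the 40th percentile. These points share arrays and group structure, so the correlations are descriptions. For Il6 the highest Pearson correlations were those of Junb (0.98), Ier2 (0.96), Atf3 (0.96), Akap12 (0.95) and Cxcl1 (0.95). For Socs3 (162206_f_at) they were those of Ptx3 (0.97), Junb (0.97), Gadd45g (0.96), Atf3 (0.95) and Fos (0.93). For Osmr they were those of Eif1a (0.93), Angptl4 (0.93), Serpina3n (0.92), Tnfrsf1a (0.92) and Il4ra (0.91). Junb and Fos encode subunits of the AP-1 factor, Atf3 a stress-induced factor, and Cxcl1 a chemokine that attracts neutrophils. Ptx3 encodes a secreted pentraxin of innate immunity. Junb and Atf3 stood among the first 5 of both Il6 and Socs3, and none of the first 5 of Il6 or Socs3 stood among those of Osmr.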

How the data were processed

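The authors deposited intensities on a linear scale, with 1 column per array for 59 arrays. Their scaling method and tool: not given in the sources used here. Groups follow the labels' titles. GEO's platform annotation named the probe sets. Of 12488, 66 were controls, 396 had several genes and 1193 none, which left 10833 for 8251 genes, tested without a filter on low values. Every one of the 14 member probe sets was at or above 108.2, percentile 40 of the whole table, on 3 or more arrays.

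An offset of 45.6, equal to 0.25 times the overall median, was added before log2. One limma model (limma 3.58.1, R 4.3.3) held all 23 groups, with a variance trend and the title number as a random block (consensus correlation 0.105, residual and prior degrees of freedom 36 and 5.38). Benjamini-Hochberg adjustment ran over all probe sets of a comparison, with 0.05 as threshold. The sham pieces of the same number were compared as fixed pairs.

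The members, lists and tests were chosen with earlier results of these data known. By the naming rule every member probe set is given. Each list adds up to 4 called genes with the largest change at its time with most infarct calls, using the brightest probe set of a gene, and Il6, Socs3 and Osmr add the 5 most similar genes. Alternatives were other offsets (0.05 and 1 times the median), quantile normalization, a filter on low values, 1 probe set per gene, no block or a fixed one, no trend, only the groups compared, other sham controls, and leaving out each array. Leaving out the 2 infarct arrays with most adipocyte signal was chosen after seeing the data.

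On simulated data of 10833 probe sets, 50 log2 changes of each size were planted in infarct against sham at 24 h. The share found was 34% at size 0.5, 82% at 1, 98% at 2 and 100% at 3, and 15 unchanged probe sets were called. Far fewer probe sets changed there than were called in the real comparison, so the shares hold for the simulated setting only. The remote comparison at 24 h, simulated with no change, gave 0 calls. Promoter windows are RefSeq's, GRCm38.p6. Plots used matplotlib 3.10.9 under Python 3.11.15.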

Additional observations from a re-analysis of the deposited data

Results flagged for a closer look

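These are the steps between neighbouring times at which a member's difference from sham changed past adjusted p = 0.05 in limma. In the infarct 10 of 70 such tests of the 14 probe sets passed, and in the remote region 5 of 70.

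The infarct effect on Il6 grew by 2.61 ± 0.54 between 1 h and 4 h (adjusted p = 0.0099). Between 4 h and 24 h the infarct effect grew by 1.87 ± 0.22 for Osmr (adjusted p = 1.94e-07) and by 0.70 ± 0.22 for Il6ra (adjusted p = 0.0308). Sham levels of both genes differed over the 6 times by limma's F test, and sham means were lower at 24 h than at 4 h. The sham arrays of these 2 times overlapped for Il6ra (271 to 360 at 4 h and 178 to 282 at 24 h). Between 24 h and 48 h the infarct effect on Il6 changed by -3.13 ± 0.54 (adjusted p = 7.39e-04), and between 48 h and 1 week that on Stat3 99100_at by -0.59 ± 0.20 (adjusted p = 0.0343). Between 1 week and 8 weeks it changed by -2.05 ± 0.54 for Il6, -0.71 ± 0.22 for Il6ra, -0.72 ± 0.22 for Osmr, and -1.37 ± 0.33 and -2.78 ± 0.51 for the Socs3 probe sets 162206_f_at and 92232_at, with adjusted p of 0.0121 or less. Leaving out 1 array ended the call of Stat3 in 6 cases, of Il6ra between 4 h and 24 h in 4, and of Il6 between 1 h and 4 h and Osmr between 1 week and 8 weeks in 1 each.

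In the remote region the effect on Il6 changed by -2.68 ± 0.54 between 4 h and 24 h (adjusted p = 0.0205) and that on Osmr by 1.11 ± 0.22 (adjusted p = 0.0205). Both passed no longer under quantile normalization (adjusted p = 0.0559 each) or with only the groups compared in the fit (adjusted p = 0.275 and 0.114). With each of the 59 arrays left out in turn, the Il6 step lost its call in 7 cases (changes of -3.23 to -1.92 over all) and the Osmr step in 5 (0.96 to 1.26). Between 1 week and 8 weeks the remote effect changed by -1.09 ± 0.22 for Osmr and by -1.14 ± 0.33 and -2.42 ± 0.51 for the Socs3 probe sets 162206_f_at and 92232_at, with adjusted p of 0.0188 or less, and the call on 162206_f_at was lost in 2 cases and under quantile normalization (adjusted p = 0.08).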

How the results depend on the processing

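No called difference changed sign under any alternative. Of 33 calls for infarct against sham, 22 kept their side of the threshold under all alternatives, including all 5 of Il6 and all 10 of Socs3, 3 of 4 of Osmr, 3 of 9 of Lifr, 1 of 2 of Il6ra, and 0 of Stat3 and Il6st. So did 12 of 20 remote calls against sham and 11 of 24 calls between infarct and remote. With 1 probe set per gene, 20 of 42 tests were called for infarct against sham, in place of 33 of 84, because fewer were tested. Quantile normalization left 2 calls, in place of 5, for the steps of the remote effect; the cause was not tested. It moved the median change of all probe sets by -0.11 for infarct against sham at 1 week. The share of calls that were higher became 48.1% there (59.5% before), 44.8% for remote against sham at 1 week (55.7% before) and 53.2% for infarct against remote at 1 h (66.9% before).

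With each array left out, calls numbered 31 to 37 (infarct against sham), 17 to 22 (remote against sham), 20 to 25 (infarct against remote), 9 to 11 (infarct steps) and 3 to 6 (remote steps). Sham upper over the 6 times kept a count of 4 each time, and lower against upper sham pieces a count of 0. The lowest of the remote steps, 3 in place of 5, came without any 1 of 5 arrays, of sham and remote pieces at 4 h and 24 h. Infarct and remote pieces with the same title number had a median correlation of deviations of 0.03 (17 pairs, -0.09 to 0.37, 7 above 0.1). For pieces with different numbers it was -0.02 (37 pairs, -0.28 to 0.18, 6 above 0.1). Same-number values lay between -0.07 and 0.03 at 1, 4 and 24 h. At 48 h, 1 week and 8 weeks they lay between -0.09 and 0.37. Of 17 infarct arrays, 9 correlated best with their own number, and the labels do not state what a shared number means. The numbers entered the model as a random block, and those of the sham pieces as fixed pairs. Without the replicate block 21 of 84 tests of infarct against remote were called, and 23 with it fixed, in place of 24. Without it Il6 at 4 h (adjusted p = 0.1), Stat3 99100_at at 1 week and Osmr at 8 weeks lost their calls, and the block changed no call against sham. Only the groups compared in the fit gave 30, 14 and 20 calls for the 3 comparisons.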

Other observations

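For Il6, the title number with the highest infarct value also had the highest remote value at 4 of the 5 times at which both regions held the same 3 numbers (1 h, 48 h, 1 week and 8 weeks). Values were low at 8 weeks, 3.9 to 41.9 in the infarct and 7.8 to 34.2 in the remote region, and in the remote region at 48 h, 18.6 to 63.2. The same number was highest in both regions for Lifr 104657_at at 4 of 5 times and for the other 12 member probe sets at 1 to 3 of 5. At 24 h the array numbered 360 had the lowest Il6 value of its group in both regions, 2423 in the infarct and 6.7 in the remote region. It also had the lowest Socs3 values of its group in both regions, 1423 and 1891 in the infarct and 345 and 186 in the remote region, on 162206_f_at and 92232_at. Its neutrophil marker sum was 11179 in the infarct, between those of the other two arrays, and 1232 in the remote region, the lowest of that group.

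By Spearman correlation over the 18 group means, the genes most like Il6 were Gadd45g (0.94), Selp (0.94), Cxcl1 (0.92), Fos (0.91) and Ch25h (0.91), and those most like Osmr were Sptlc2 (0.97), Ccl9 (0.97), Eif1a (0.96), Angptl4 (0.95) and Lox (0.94). Only Cxcl1 stood in both lists of 5 for Il6, and Eif1a and Angptl4 in both for Osmr.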
